A study of Oryza sativa with 2 samples.

Results

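The genes described here are the rice expansins, the cellulose synthases (CESA) and the cellulose synthase-like genes (CSL), compared between leaves with yellow tips and green leaves. They were found by name: a probe set belonged to them where its only annotated gene carried a symbol or synonym, with a leading Os dropped, made of EXPA, EXPB, EXLA, EXLB or CESA and a number, or of CSL, a letter and a number. This gave 70 of 57258 rice probe sets, for 58 of the 17905 genes that the annotation ties to a probe set of their own. The gene table holds 84 genes with such names, and the other 26 had no probe set listed under them, alone or shared.

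The study follows leaf-tip yellowing in material of SA0420, a rice mutant that senesces early. The yellow leaf tip array held RNA from leaves of recombinant inbred lines labelled F9Y, with yellow leaf tips and described as mutant. The green array held RNA from leaves of recombinant inbred lines labelled F9G, described as normal green. Both were in the vegetative stage. Recombinant inbred lines are fixed by repeated inbreeding from a cross, here of parent lines that the labels do not name. The titles speak of leaves and the descriptions of leaf tips, and the sources used here do not give how many plants or lines were pooled. There was 1 array per group and so no replicate and no test: every difference below compares these arrays, not the conditions.

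A grass leaf cell is enclosed by a wall of cellulose microfibrils in a matrix of xylan, mixed-linkage glucan and smaller amounts of xyloglucan, mannan and pectin. CESA proteins form the plasma membrane complexes that spin cellulose, and CSL proteins of the same superfamily make backbones of matrix polysaccharides. Expansins are secreted proteins that loosen the contacts between wall polymers without cutting them, which lets a growing wall extend.

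The deposited values are signal intensities on a linear scale. A probe set was kept where its mean over both arrays reached the median of all such means, 86.0. Differences are yellow leaf tip minus green on a log2 scale after adding 22.6 to each value, centred on the median of the kept probe sets, so that 1 is a fold of 2, and a gene is the mean of its kept probe sets. Of the 58 genes, 35 were kept, on 42 probe sets. Where probe sets of the same gene could be compared, their differences had a pooled SD of 0.46 over 2215 genes. The kept probe sets were also divided by signal into 5 bands of equal number, and this SD was 0.69 for genes in the dimmest band and 0.40 in the brightest, and it covers disagreement between probes only. As a measure of background, the 42 control probe sets for Bacillus genes had a median of 13.5 and a highest value of 56.9 in yellow-tip leaves, and of 21.3 and 97.6 in green leaves. All 4 leaf markers with a probe set were kept, with 10 of 11 probe sets above the Bacillus controls on both arrays, a summed signal of 65433 in yellow-tip leaves and 94299 in green leaves, and a median difference of -0.35. Rubisco activase RCA, the Rubisco small subunit RBCS and the photosystem gene PSAH had differences of -0.20, -0.50 and -0.75. The 4 probe sets of RBCS differed by up to 1.15. PSAG, also of a photosystem, had 0.51, but its 2 probe sets differed by 1.29 and only 1 lay above the Bacillus controls on both arrays. Over the other settings PSAG ran from -0.20 to 0.60, so no direction can be given for it.

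The CESA genes were all measured above background and 8 of 9 had a higher signal in yellow-tip leaves, each by less than 2-fold. Expansins and CSL genes were divided. Their differences spanned 2.62 and 2.99 on the log2 scale, over 14 and 12 kept genes, beside 1.26 for CESA, with the CSL gene CSLE1 the highest of the kept members and CSLC1 and EXLA1 the lowest. Of the 35 kept genes, 3 were higher in yellow-tip leaves by at least 2-fold (8.57%), beside 5.57% of all 14697 kept genes, and 3 were lower (8.57%), beside 3.18%. With so few genes these shares show little about the families. At a log2 difference of 2 no member was called, beside 1.12% of all kept genes higher and 0.333% lower. Counted by probe set, 3 of the 42 were higher and 4 lower, beside 5.82% and 6.29% of all kept probe sets. The median difference of the members was 0.21 and that of all kept genes 0.08. In leaf samples of many cell types, fewer cells of a type and less RNA per cell cannot be told apart.

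**Figure D1:**
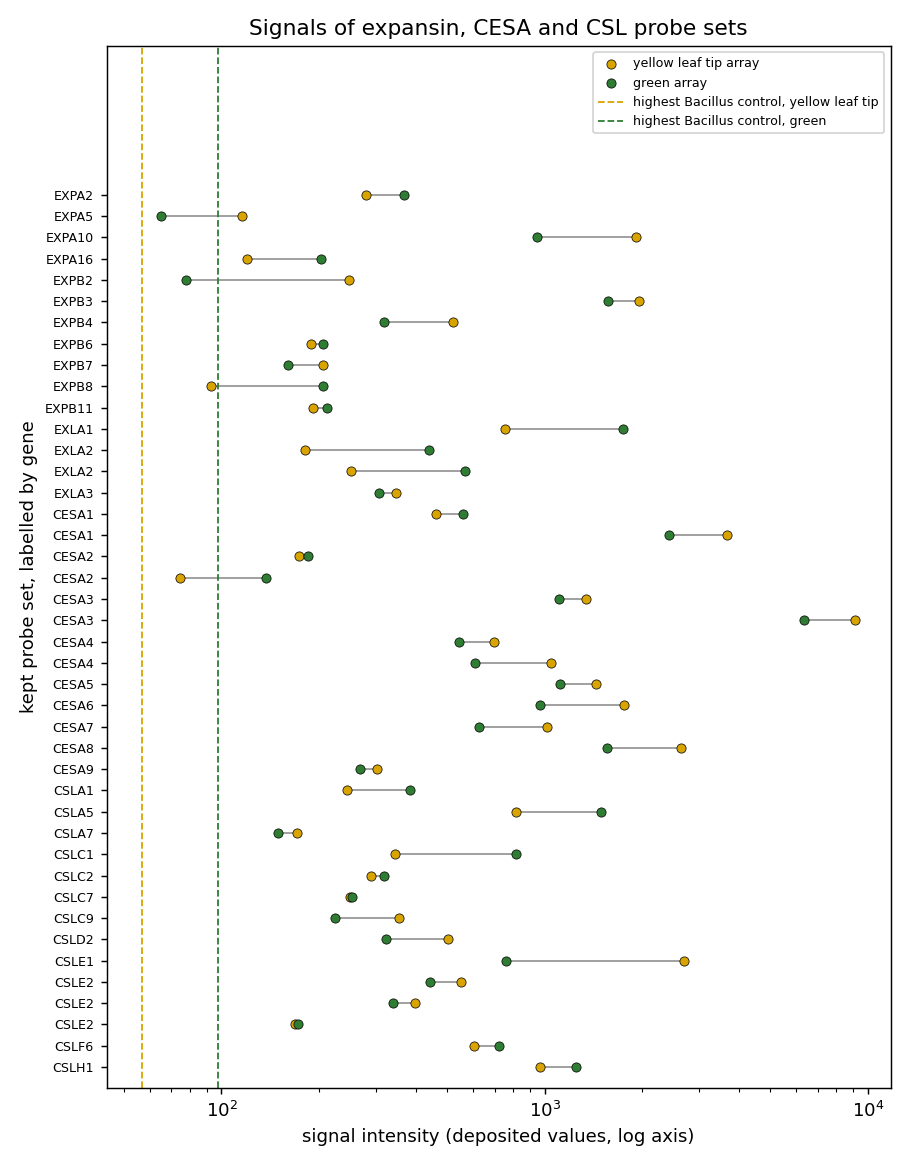
Signal intensity (log axis) of each of the 42 kept probe sets for yellow-tip leaves (yellow points) and green leaves (green points), labelled by gene, with dashed lines at the highest Bacillus control of each array, 56.9 and 97.6. The widest gaps are those of CSLE1 and EXPB2, with the yellow leaf tip array higher, and the green points of EXPB2 and EXPA5 lie left of the green line.

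Alpha-expansins (EXPA) are the larger branch of the wall-loosening proteins. Of 14 EXPA genes with a probe set, only 4 were kept. Of their 16 probe sets, 3 lay above the highest Bacillus control on both arrays and 9 on neither. EXPA10 (LOC4336776), known in rice roots as a gene that responds to aluminium, had a signal of 1917 in yellow-tip leaves and 948 in green leaves. This was 2.07-fold higher in yellow-tip leaves, a log2 difference of 1.05, the only EXPA gene past 2-fold. The call sits on the threshold: over the other settings tried the difference ran from 0.95 to 1.08, and it passed 1 in 3 of 8. Its only probe set is named as reading several transcripts, so EXPA10 was unmeasured where such probe sets were dropped. EXPA5 had 116 in yellow-tip leaves and 64.8 in green leaves, a log2 difference of 0.71, but its green signal lay within the range of the Bacillus controls. EXPA16 had 120 against 204 (-0.62) and EXPA2 279 against 367 (-0.32). The kept EXPA genes therefore stood on both sides of 0.

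The 10 EXPA genes below the filter were EXPA1, EXPA3, EXPA4, EXPA6, EXPA7, EXPA8, EXPA26, EXPA29, EXPA31 and EXPA32. With no filter, 10 of the 14 EXPA genes had a difference below 0 and the median was -0.28, whereas 58.5% of all 17905 genes were then above 0. EXPA4, known in rice to affect plant growth, was the only one of the 10 past 2-fold without a filter, at 1.83 in yellow-tip leaves against 47.8 in green leaves (-1.44). Both values lie within the Bacillus controls, so EXPA4 was not measured above background on either array. The Bacillus controls themselves were brighter on the green array, by the values given above, and their part in the low EXPA values was not tested.

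Beta-expansins (EXPB) are the branch that is large in grasses and includes the group-1 pollen allergens. Of 11 EXPB genes with a probe set, 7 were kept. EXPB2 (LOC4349348) had 247 in yellow-tip leaves and 77.8 in green leaves, 2.78-fold higher in yellow-tip leaves (1.48). Its green signal lies within the Bacillus controls, and the size of the difference followed the settings, from 1.06 to 1.72, although it stayed past 2-fold in all 8 in which the gene was measured. EXPB4 had 522 against 319 (0.72), and its probe set may also bind other sequences. EXPB7 had 206 against 161 (0.37) and EXPB3 1955 against 1570 (0.36). These last differences are below the pooled SD between probe sets at their signal, 0.56 and 0.40. EXPB6 (189 against 207, -0.07) and EXPB11 (193 against 212, -0.07) were nearly level. EXPB8 lay at the other end, with 92.6 in yellow-tip leaves and 207 in green leaves (-0.94), and passed 2-fold in 1 of the other settings, with no pseudocount (-1.10).

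Some neighbouring beta-expansin genes lay apart in their differences. EXPB6, EXPB2, EXPB3 and EXPB4 follow each other without another gene between them in the RefSeq gene order of assembly ASM3414082v1, and their differences were -0.07, 1.48, 0.36 and 0.72. EXPB6 and EXPB2, next to each other, differed by 1.54 in their differences, a size that rests on the green signal of EXPB2 within the Bacillus controls. EXPB3 and EXPB4, also next to each other, lay only 0.36 apart, each on a single probe set. That of EXPB3 is named as reading several transcripts, and that of EXPB4 may also bind other sequences. EXPB8 and EXPB7, with 1 gene between them, lay at -0.94 and 0.37, where the pooled SD between probe sets was 0.56. A run of 6 neighbouring alpha-expansin genes, from EXPA12 to EXPA20, had no probe set listed under any of its members.

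The 4 EXPB genes below the filter were EXPB9, EXPB10, EXPB17 and EXPB18. EXPB9 and EXPB10 belong to the pollen allergen type. With no filter EXPB9 had 57.1 against 7.15 (1.51), where 57.1 is barely above the highest Bacillus control, and EXPB10 had 57.0 against 24.2 (0.85). EXPB17 and EXPB18 were within the Bacillus controls on both arrays.

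Expansin-like proteins (EXLA and EXLB) share the expansin domains, and no wall-loosening activity is established for them. Of the 3 kept EXLA genes, 2 were lower in yellow-tip leaves by just over 2-fold. EXLA1 (LOC4331516) had 756 in yellow-tip leaves against 1752 in green leaves, 2.20-fold lower (-1.14, and -1.24 to -1.08 over the settings). EXLA2 (LOC4349265) was read by 2 probe sets, with 182 against 439 and 251 against 566, and their differences lay 0.07 apart. The mean of -1.09 is 2.13-fold lower, and only with the larger pseudocount did it miss 2-fold (-0.91). EXLA3 differed from both, with 348 against 308 (0.21). EXLA4 was below the filter at 87.2 against 69.0, and EXLB1 had no probe set listed under it. The lower members of the expansin superfamily past 2-fold were thus both EXLA genes, while the higher ones were 1 EXPA and 1 EXPB gene, on counts too small to compare the branches.

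**Figure D2:**
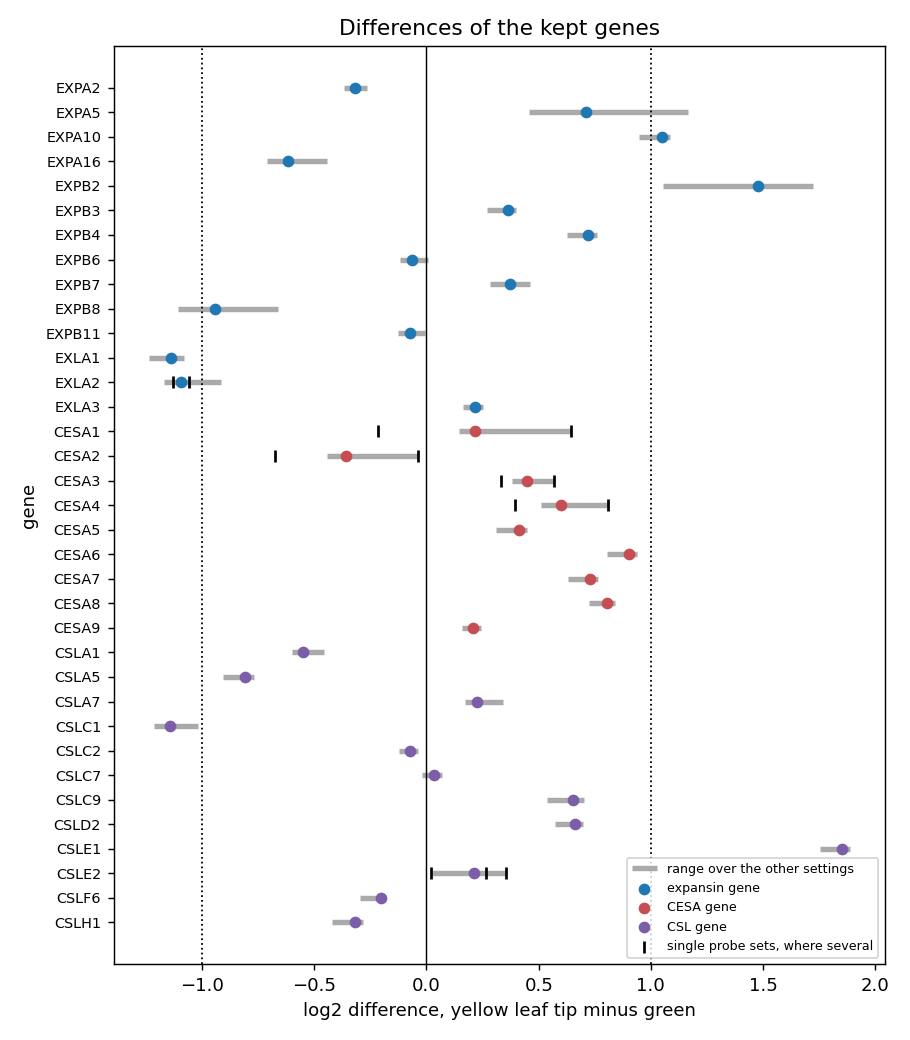
Log2 difference, yellow leaf tip minus green, of the 35 kept genes (points, coloured by family), with the range over the other settings (grey bars) and the single probe sets of genes with several (ticks). Dotted lines mark a fold of 2; 8 of 9 CESA points lie between 0 and 1, while expansin and CSL points lie on both sides of 0.

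All 9 CESA genes were kept, and all 13 of their probe sets lay above the highest Bacillus control on both arrays. In rice, CESA4, CESA7 and CESA9 make the cellulose of secondary walls, and CESA1, CESA3 and CESA8 that of growing primary walls. CESA6 had 1759 in yellow-tip leaves and 965 in green leaves (0.90). CESA8 had 2638 against 1556 (0.80). These were the highest CESA differences, folds of 1.87 and 1.74.

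Among the secondary wall genes, CESA7 had 1019 against 628 (0.73). CESA4 had 697 against 544 on 1 probe set and 1048 against 611 on the other, with a mean difference of 0.60. CESA9 had 302 against 269 (0.21), below the pooled SD between probe sets at its signal, 0.56. The 3 secondary wall genes had a median of 0.60 and the other 6 CESA genes of 0.43, with ranges that overlap.

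CESA5 had 1439 against 1116 (0.41). CESA3 had 1348 against 1105 on 1 probe set and 9121 against 6360 on the other, with a mean of 0.45. CESA1 was read in opposite directions by its probe sets, with 461 against 558 (-0.21) and 3661 against 2419 (0.64), so its mean of 0.21 hides a disagreement of 0.86. CESA2 was the only gene of the family below 0, with 173 against 186 and 74.3 against 138 on its 2 probe sets and a mean of -0.36. The differences of CESA1 and CESA2 are below the pooled SD between probe sets at their signal, 0.40 and 0.69. That of CESA5 is about equal to this SD, 0.41.

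The median CESA difference was 0.45, and it ran from 0.40 to 0.64 over the 9 other settings. The share of genes above 0, 8 of 9, stands beside 56.6% of all kept genes. Of the 9 genes, 7 lie in the 2 brightest bands of signal, where 62.3% and 53.4% of all genes were above 0. With the difference levelled by loess on signal, 8 of 9 stayed above 0 and the median was 0.42. No CESA gene reached 2-fold in any setting.

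**Figure D3:**
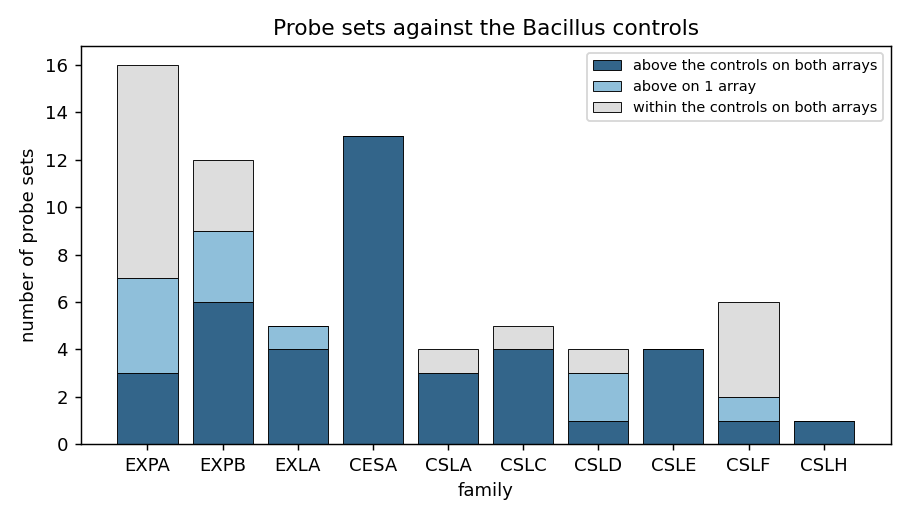
Number of probe sets per family (bars) that lay above the highest Bacillus control on both arrays, on 1 array or on neither. All 13 CESA probe sets were above on both, and 3 of 16 EXPA probe sets were.

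CSLE genes, whose product in rice is not settled, held the largest difference of all kept members. CSLE1 (LOC4347370) had 2705 in yellow-tip leaves and 761 in green leaves, 3.60-fold higher (1.85). The difference ran from 1.76 to 1.89 over the 8 settings in which it was measured. It rests on a single probe set whose name marks several transcripts, which left it unmeasured where such probe sets were dropped. CSLE2 had 3 probe sets, at 551 against 442, 398 against 339 and 168 against 172, with a mean of 0.21. CSLE6, the direct neighbour of CSLE1 in the gene order, had no probe set listed under it.

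CSLA proteins make mannan and CSLC proteins the glucan backbone of xyloglucan. CSLC1 (LOC4325496) had 344 in yellow-tip leaves and 814 in green leaves, 2.21-fold lower (-1.14), and stayed past 2-fold in all 9 other settings (-1.21 to -1.02). CSLC9 went the other way, with 353 against 225 (0.65). CSLC2 (291 against 319, -0.07) and CSLC7 (249 against 253, 0.03) were level, and the probe set of CSLC7 may cross-hybridize. The CSLC genes thus spanned 1.79 on the log2 scale with no common direction.

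Of the CSLA genes, CSLA5 had 814 against 1496 (-0.81) and the gene listed as both CSLA1 and CSLA9 had 245 against 383 (-0.55). CSLA7 had 172 against 150 (0.22). The other gene listed as CSLA9 and CSLC3 were below the filter and within the Bacillus controls on both arrays. No CSLA gene was past 2-fold.

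CSLF and CSLH proteins make mixed-linkage glucan, the matrix polymer typical of grasses. CSLF6, the main enzyme of this synthesis, had 603 in yellow-tip leaves and 723 in green leaves on its kept probe set (-0.20), while its 2 other probe sets lay within the Bacillus controls on both arrays. CSLH1 had 964 against 1253 (-0.32). Both differences are below the pooled SD between probe sets at their signal, 0.46 and 0.41. CSLF2, CSLF7 and CSLF8 were below the filter. Without it CSLF8 had 3.73 against 80.7 (-1.89), within the Bacillus controls on both arrays, and CSLF2 had 27.4 against 107 (-1.29), above them on the green array only.

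CSLD proteins act in tip-growing and dividing cells, and CSLD1 is needed for root hairs in rice. CSLD2 had 504 against 322 (0.66) and was the only CSLD gene kept. CSLD4, whose loss gives narrow leaves in rice, was below the filter, with 122 in yellow-tip leaves and 9.29 in green leaves (2.26 without a filter). The yellow leaf tip value is above the Bacillus controls, the green one is below the pseudocount, and the probe set may cross-hybridize. CSLD5 had 46.0 against 121 (-0.98 without a filter), above the controls on the green array only, and CSLD1 was within them on both. Where probe sets that may cross-hybridize were dropped, the filter lay at 74.2, and CSLD5 was then kept and past 2-fold (-1.05).

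Without a filter, 5 of the 58 genes were higher by at least 2-fold (7.67% of all genes were) and 6 were lower (4.4% of all genes). The 5 genes that were below the filter and past 2-fold were EXPA4, EXPB9, CSLD4, CSLF2 and CSLF8, and each had at least 1 signal within the Bacillus controls. Nearest to the filter of 86.0 lay EXPA7 and CSLD5 below it, with a mean signal of 84.0 on the brightest of the 3 EXPA7 probe sets and 83.6 for CSLD5, and EXPA5 above it, with 90.2.

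Other genes that build or trim the wall were matched by symbol: endoglucanases, brittle culm and COBRA-like genes, xylan synthesis, nucleotide sugars, pectin, a xyloglucan endotransglucosylase and beta-glucosidases. Of 58 such genes with a probe set, 43 were kept, and 7 were higher in yellow-tip leaves by at least 2-fold (16.3%) and 1 lower (2.33%), beside 5.57% and 3.18% of all kept genes. Their median was 0.32. Apart from the beta-glucosidases, 2 of 22 were higher (9.09%) and 1 lower (4.55%), with a median of 0.29. GT43A of the xylan synthesis family GT43 had 1065 in yellow-tip leaves against 483 in green leaves (1.15). The endoglucanase gene GLU11, which was chosen knowing its value, had 911 against 448 (1.04, and 0.94 to 1.08 over the settings). PMEI28, a pectin methylesterase inhibitor gene, was the lower one, with 840 against 2197 (-1.31). The COBRA-like gene BC1L9 had 1347 against 2173 (-0.78), on 2 probe sets that differed by 0.63. BC1, the brittle culm COBRA-like gene that works with secondary wall cellulose and was also chosen knowing its value, had 730 against 578 (0.38). Another gene listed as BC1 (LOC4347540) was below the filter, with 5.74 against 32.9 (-0.88 without a filter), within the Bacillus controls on both arrays.

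Expansins and CESA1, CESA3 and CESA8 serve growing cells, and markers of dividing cells were therefore set beside them. Of 19 cyclin, CDKB and related genes with a probe set, 11 were kept, and 9 of these were below 0 and none past 2-fold, with a median of -0.41, while 56.6% of all kept genes were above 0. The 2 above 0 were CYCD6-1 (412 against 219, 0.90) and CYCD3-1 (0.14). Most of the 11 were D-type cyclins (CYCD). The lowest were CYCB2 (57.7 against 126, -0.83) and CYCA3-2 (57.5 against 122, -0.80), with yellow-tip signals barely above the highest Bacillus control, 56.9. CYCD5-3 (-0.41), CYCD4-1 (-0.20), PCNA (-0.20), CYCA1-4 (-0.13) and CYCD3-1 lay within the pooled SD between probe sets over all genes, 0.46. The summed signal of all 11 kept genes was 2830 in yellow-tip leaves and 3452 in green leaves. CDKB2-1, which marks division, was below the filter, with 36.0 against 108, the former within the Bacillus controls. CYCA2-1, also below the filter and within the controls on both arrays, leaned the other way, with 48.1 against 7.75. Both genes listed as CYCB1-1 lay within the Bacillus controls on both arrays. The gene matched as H3 was OSH3, a homeobox gene, by accident of its name, and was below the filter. The part of dividing cells in the expansin and CESA values was not tested. Of the seed and anther markers, 4 of 7 were kept and all 4 were below 0, with summed signals of 1016 and 1662. GLUB-4, a glutelin gene, was past 2-fold, with 22.3 against 186 (-2.17) and the former within the Bacillus controls. The root marker PHT1-11 had none of its 4 probe sets above the controls on both arrays.

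**Figure D4:**
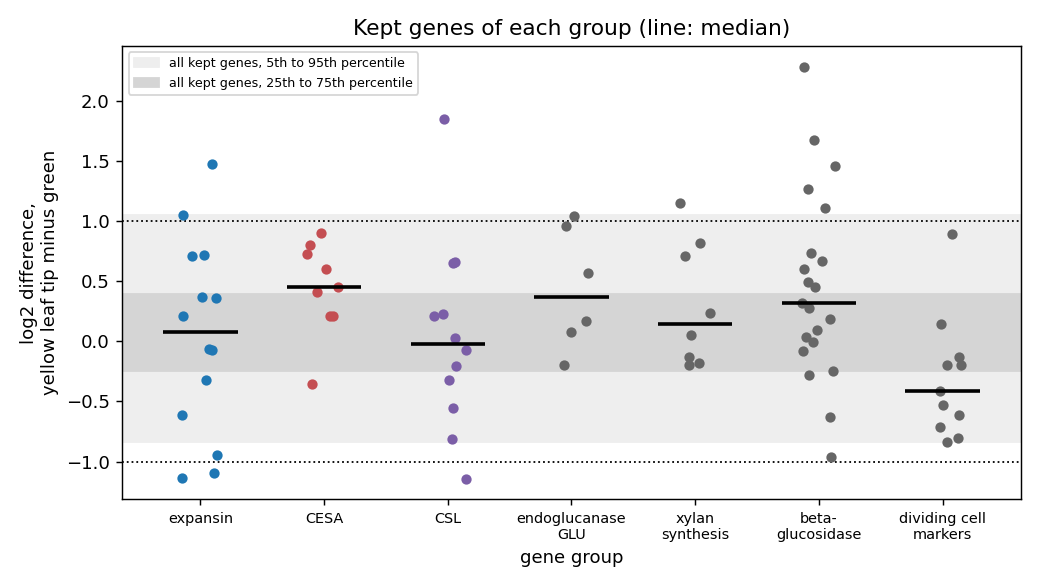
Log2 difference, yellow leaf tip minus green, of the kept genes of each group (points, with jitter across, and a line at the median) over bands for the 5th to 95th and the 25th to 75th percentile of all 14697 kept genes. The bands show the spread of single genes and are no measure for a median; the medians are 0.07 for expansins, 0.45 for CESA and -0.02 for CSL genes.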

How the data were processed

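RNA from 2 leaf samples was measured on 1 single-colour oligonucleotide array each. The authors deposited signal intensity per probe set on a linear scale. The sources used here name neither the software nor the scaling behind these intensity values. The mean without the outer 2% at each end was 500.1 on both arrays. Biotinylated cRNA was made from total RNA of an RNeasy kit, per the labels' protocols.

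Each array had 57381 values, of which the 123 of control probe sets did not enter the comparison. The pseudocount of 22.6 is the 25th percentile of all values, and the centring shift was -0.05. Genes came from the platform annotation: 22436 probe sets had 1 gene, 95 had several and for 34727 no gene was listed. All 17905 genes matched by identifier to RefSeq genes of assembly ASM3414082v1, used for names and gene order only. No protein or promoter sequence was used here.

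A value was called within the Bacillus controls where it was at or below the highest of them on that array. Probe sets named _x_at, _s_at or _a_at were treated as open to cross-hybridization. The last of these usually marks several transcripts of the same gene. The number of arrays limits the precision, and with 1 per group no p-value was computed. The computation of the difference was checked only on simulated arrays with little noise and large known changes in bright probe sets. That check cannot speak to small differences or dim genes. Calculations used Python 3.11.15 with pandas 2.3.3, numpy 2.4.6 and statsmodels 0.14.6.

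The members, lists and settings were chosen with earlier results of these data known. All kept members are named, as are members below the filter with a difference past 2-fold without it, and up to 6 highest and 6 lowest genes of the wider wall list. The alternatives were no centring, quantile normalization, loess on signal (fraction 0.3), no pseudocount or one at the 50th percentile, no filter or one at the 75th, omission of probe sets open to cross-hybridization, taking each gene from its brightest probe set, and a threshold of 2. Counting probe sets instead of genes was chosen after seeing the data.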

Additional observations from a re-analysis of the deposited data

How the results depend on the processing

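The 35 kept members gave 289 values under the other 9 scalings and filters, and each moved by less than the pooled SD between probe sets, 0.46. Of the 6 members past 2-fold, CSLE1, CSLC1, EXLA1 and EXPB2 stayed past it wherever they were measured. EXPA10 dropped below it in 5 settings and EXLA2 in 1. The count of 3 higher members became 5 with no filter, 1 with the filter at the 75th percentile, 1 without probe sets open to cross-hybridization and 0 at a threshold of 2. It was 2 with no centring, with quantile normalization and with the larger pseudocount. The count of 3 lower members became 6 with no filter and 0 at a threshold of 2. Counted by probe set, 3 were higher and 4 lower. For the wider wall list, the 7 higher genes became 1 at a threshold of 2 and otherwise ran from 5 to 8. Its 1 lower gene became 2 without centring, 2 with no pseudocount, 3 with no filter and 0 at a threshold of 2. By construction, fewer or more genes entered under the filter settings and fewer passed the higher threshold. Without probe sets open to cross-hybridization, EXPA10 and CSLE1 had no probe set left, and CSLD5 entered among the lower members (-1.05). The cause of the other changes was not tested. The expansin median of 0.07 was -0.04 with no filter and -0.07 without probe sets open to cross-hybridization, so no direction can be given for it. The CSL median of -0.02 stayed below 0 (-0.33 to -0.01), but 6 kept CSL genes were above 0 and 6 below, so it gives no direction either. The CESA median stayed above 0. No paired analysis was possible because each group had 1 array. Signals within the Bacillus controls limit what can be said of most EXPA and CSLF genes.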

Other observations

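Beta-glucosidases, which release glucose or an active compound from a glucoside and act on wall oligosaccharides, hormone conjugates and defence compounds, held most of the higher genes of the wider wall list. Of 27 such genes with a probe set, 21 were kept, and 5 were higher in yellow-tip leaves by at least 2-fold (23.8%) and none lower, with a median of 0.32. BGLU22 had a signal of 681 in yellow-tip leaves and 127 in green leaves, 4.87-fold higher (2.28, and 1.88 to 2.48 over the settings). BGLU26 had 479 against 140 (1.67). BGLU16 had a mean of 2042 against 755 (1.45) on 2 probe sets that differed by 0.24, BGLU31 had 2112 against 894 (1.27) and BGLU12 1990 against 944 (1.11).

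At the other end, BGLU14 had 205 against 435 (-0.96) and BGLU3 173 against 294 (-0.63). BGLU27 (-0.28) and BGLU36 (-0.24) were within the spread between probe sets. Among all kept genes 5.57% were higher by at least 2-fold and 3.18% lower. The list was matched by symbol with earlier results of these data known, and there was no replicate.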
